A study of Mus musculus with 48 samples.

Results

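The mouse genes Dnase1l3, Dnase2a, Trex1, Samhd1, Rnaseh2a, Rnaseh2b, Rnaseh2c and Adar were followed in RAW264.7 cells, a mouse macrophage line. They were taken by symbol, as nucleases and nucleic acid editors whose human counterparts are linked to lupus or to related interferon disorders. Earlier results of these data were known when they were chosen. All 8 were found among the 49568 genes of the count table. Messenger RNA was sequenced after 72 h, with the medium refreshed at 48 h. The 8 groups received PBS, 1 of 3 synthetic peptides (LE, SE or PE, each at 100 µg/ml), IFNy (interferon-γ, IFN-γ, at 5 ng/ml), or a peptide and the cytokine together (LE+IFNy, SE+IFNy, PE+IFNy). The peptides copy 1 stretch of the HLA-DR β chain from 3 human alleles, LE from the allele tied to lupus, SE from an allele tied to rheumatoid arthritis and PE from an allele regarded as protective. All groups were of 1 transformed cell line, with no genetic change of their own.

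Nucleic acids that collect in the wrong place are read by the innate immune system as a sign of infection. Secreted and lysosomal DNases digest DNA outside the cell and in engulfed material. Other nucleases within the cell remove stray DNA and RNA-DNA hybrids, and RNA editing marks the cell's own double-stranded RNA as self. Loss of function in several of these enzymes in people leads to Aicardi-Goutières syndrome or to familial forms of lupus, both of which run with high interferon activity. Macrophages carry much of this clearance, because they take up dying cells.

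Each group held 6 libraries, of which replicates 1 to 3 carry a letter label and replicates 4 to 6 an HLA label. The mean log2 level of 20 IFN-γ target genes ran from 6.45 to 6.83 in the 12 letter-labelled libraries with IFN-γ and from 1.63 to 1.79 in the 12 without it. By the same measure 12 of the 24 HLA-labelled libraries did not match their labels, namely all of those labelled LE, PE, IFNy or SE+IFNy. In the table's column order each letter-labelled trio is followed by an HLA-labelled trio whose label names another group, and in all 8 cases the IFN-γ targets of both trios were high or both low. The labels were kept, so a value given under an HLA label may belong to another treatment. Results below therefore rest on the 24 letter-labelled libraries, of 16.5 to 26.9 M counts each (M for mega), and the HLA-labelled ones, of 14.1 to 42.6 M, are given by their labels where named. Of 8 macrophage markers 7 exceeded 1 CPM (the count scaled to the library total, per mega), Mertk being the exception, and the summed level of the B cell, T cell and NK cell markers stayed under 1 CPM each. Other markers moved with the groups. The summed level of 5 osteoclast markers was 188 to 239 CPM in the libraries without IFN-γ and 42.2 to 56.7 CPM with it, and 3 of the 4 tested fell in IFNy against PBS. That of 5 dendritic cell markers, of which 2 exceeded 1 CPM, reached at most 10.2 CPM without IFN-γ, 21.5 in IFNy, 41.7 in LE+IFNy, 27.2 in SE+IFNy and 18.1 in PE+IFNy. Their part in the results below was not tested. The study's figure legends describe the 6 libraries of a group as biological replicates from 2 independent experiments. The labels do not say which library came from which experiment, so the 3 letter-labelled libraries of a group may share 1. In bulk RNA a change of level per cell and a change in the share of cells that hold a transcript cannot be told apart.

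Trex1 encodes the main DNA exonuclease of the cytosol. It had 0 counts in all 48 libraries. The gene lies at chr9:109057933-109059734 on the minus strand of GRCm38. In the annotation used here (GENCODE M21) all 1147 of its exon bases are also exon bases of Atrip, a gene of the DNA damage response, on the same strand. The start of its coding sequence is shown because it cannot tell the 2 genes apart, with the start codon in capitals and the rest in lower case (chr9:109058862-109058921, minus strand):
Trex1: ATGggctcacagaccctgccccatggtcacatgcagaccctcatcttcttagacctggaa
The whole coding sequence of 942 bases stands unbroken in 2 of 9 annotated Atrip transcripts, from base 3260 of the 4248-base Atrip-204 and from base 3230 of the 4215-base Atrip-205.

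A read from such bases belongs to both genes, and by default featureCounts leaves out a read that overlaps more than 1 gene. The setting the authors used is not given in the sources used here. Of 77 protein-coding genes whose exons are wholly shared with a gene on the same strand, 74 (96.1%) had no count in any letter-labelled library. The share at 0 was 40.0% among 35 genes wholly shared with a gene on the opposite strand only and 28.2% among 15047 genes with no shared exon base. Over all 48 libraries, where Trex1 was also at 0, these shares were lower, at 68.83% (53 of 77), 25.71% and 24.02%. Some wholly shared genes thus had counts under the HLA labels, and such sharing did not always give a 0. Atrip itself had 0 to 11 counts a library in the letter-labelled series and 15 to 70 under the HLA labels. Whether the sharing gave the 0 of Trex1 was not tested. The 0 is not read here as a lack of expression, and Trex1 is not counted among the genes tested below. Among the other members, the share of exon bases held in common with another gene was 9.7% on the same strand for Rnaseh2a (Gm49661). On the opposite strand it was 30.0% for Dnase2a (Mast1), 24.8% for Rnaseh2c (Kat5) and 16.8% for Adar (Chrnb2).

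Promoter sequence came from RefSeq (GRCm38.p6), which held entries for 6 of the 8 genes, and Dnase1l3 and Rnaseh2b had none. The 250 bases before each start site were searched on both strands for the core of an IFN-γ activated site, TTCNNNGAA, and of an interferon-stimulated response element, GAAANNGAAA. The first was present in 7.02% and the second in 2.98% of 32851 promoters. The only match among the members was the first motif in Samhd1. It is shown, in capitals, because Samhd1 stood higher with IFN-γ in every pair of groups. The exon-free bases upstream of Dnase2a, which stood lower with IFN-γ in every pair and held neither motif, are shown beside it. The Samhd1 stretch is chr2:157135266-157135346 on the minus strand and that of Dnase2a chr8:84908505-84908559 on the plus strand:
Samhd1: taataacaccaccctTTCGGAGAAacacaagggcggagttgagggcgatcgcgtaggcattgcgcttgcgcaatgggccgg
Dnase2a: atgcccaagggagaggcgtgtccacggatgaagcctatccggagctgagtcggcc
A match is a string of letters and not a measured binding site, and a window without one says nothing of the factor.

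Dnase1l3 (chr14:7964533-7994573, minus strand) encodes a secreted DNase that digests DNA on microparticles and in apoptotic debris, and its loss causes a childhood form of lupus. It was nearly silent without IFN-γ. The counts of replicates 1 to 3 were 0, 0 and 4 in PBS, 0, 3 and 0 in LE, 0, 2 and 9 in SE, and 0, 3 and 1 in PE. With IFN-γ they were 143, 134 and 142 in IFNy, 133, 140 and 137 in LE+IFNy, 132, 105 and 139 in SE+IFNy, and 144, 162 and 147 in PE+IFNy. The lowest of the 12 libraries with IFN-γ stood at 4.60 CPM and the highest of the 12 without it at 0.435 CPM, so the ranges did not overlap.

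**Figure D1:**
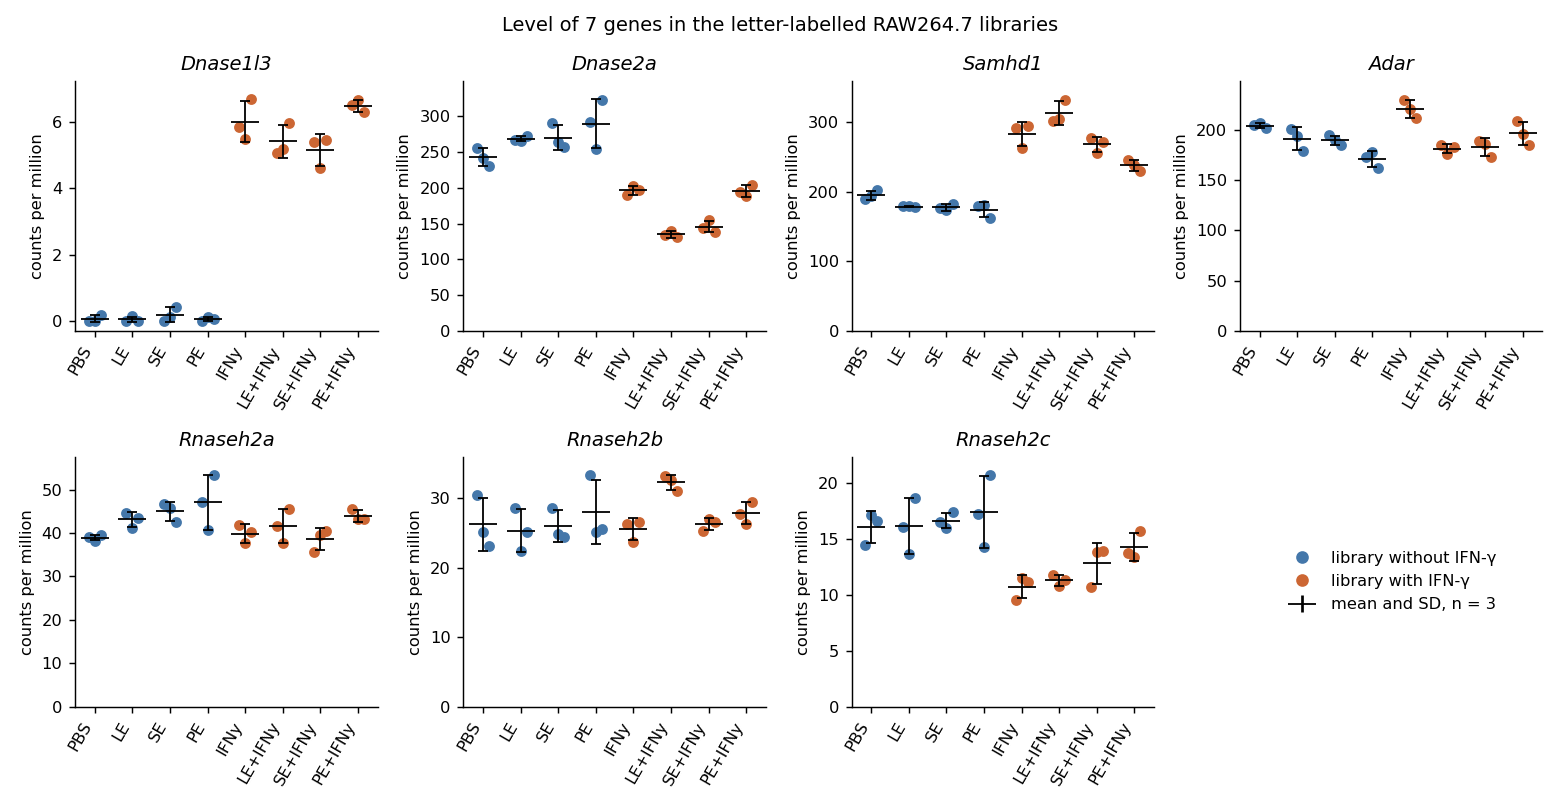
Level of the 7 genes with counts, in CPM on a linear axis, in the 8 groups of letter-labelled libraries. Each point is 1 library, and the bars give the mean and SD of 3. Dnase1l3 lies at 4.60 CPM or above in every library with IFN-γ, and Dnase2a is lowest in LE+IFNy and SE+IFNy.

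Genes were called at a Benjamini-Hochberg adjusted p under 0.05 in edgeR's quasi-likelihood test over all genes tested, together with a change of over 1.5-fold. For IFNy against PBS, 18.1% of 12242 genes were called, and of the 8 members Dnase1l3 alone, with a log2 fold change of 6.54 ± 0.51 (SE, n = 3 a group) and an adjusted p of 1.8e-06. Because PBS held only 4 counts in all, the ratio of pooled levels, each being the counts summed over a group's libraries divided by their summed totals, is the plainer figure. It was 100.3, with an exact 95% interval from counting error alone of 38.9 to 369.8. Without replicate 1 it was 65.6 (25.3 to 242.4). With replicate 3 left out PBS had no count, and the ratio was at least 86.5 against a floor of 3 counts over the group.

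The rise of Dnase1l3 with IFN-γ was called with each peptide present, in the comparison the study names Model B, peptide+IFNy against peptide. The ratio of pooled levels stood at 112.9 (38.4 to 549.9) with LE, 29.3 (16.2 to 59.1) with SE and 98.9 (38.4 to 364.6) with PE. These ratios rested on few counts in the peptide groups and moved with single libraries, SE replicate 3 holding 9 of the 11 counts of its group. Without replicate 1 they were 74.3 with LE, 17.3 with SE and 64.2 with PE. Without replicate 3 the SE ratio was 104.4 (28.6 to 866.7). Without replicate 2 that of PE, on 1 count in the peptide group, was 242.4 (43.2 to 9605), and that of LE, on no count, at least 75.9. The interaction of SE and IFN-γ for Dnase1l3 was not past the threshold (log2 value -1.76 ± 1.05 SE, adjusted p = 0.251).

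Among the groups with IFN-γ, the level of Dnase1l3 ran from 4.60 to 6.70 CPM over the libraries. The mean was 6.48 ± 0.18 CPM (SD, n = 3) in PE+IFNy, 6.01 ± 0.62 in IFNy, 5.41 ± 0.50 in LE+IFNy and 5.15 ± 0.48 in SE+IFNy, and each group's range overlapped that of its neighbour in this order. Against IFNy alone (Model A) the log2 difference was -0.14 for LE+IFNy with a 95% interval of -0.41 to 0.13, -0.19 (-0.47 to 0.08) for SE+IFNy and 0.14 (-0.13 to 0.41) for PE+IFNy, with none past the adjusted p. Differences within those bounds were not detectable at this depth. Between peptides, LE+IFNy was -0.28 (-0.54 to -0.01, adjusted p = 0.0717) against PE+IFNy and SE+IFNy was -0.33 (-0.60 to -0.06, adjusted p = 0.0556), neither past the threshold. Every PE+IFNy library (6.30 to 6.65 CPM) nonetheless lay above every library of LE+IFNy (5.06 to 5.98) and of SE+IFNy (4.60 to 5.45). The 3 genes of at least 10 CPM on average whose log2 levels ran most like those of Dnase1l3 over the 24 libraries were Tap1 (Pearson r = 0.994), which pumps peptides for MHC class I, H2-Ea-ps (0.994) and Batf2 (0.994).

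Under the HLA labels Dnase1l3, like the IFN-γ targets, did not match 4 of the 8 group names. The counts of replicates 4 to 6 were 34, 20 and 14 in libraries labelled LE and 32, 36 and 15 in those labelled PE, against 0, 5 and 0 in those labelled IFNy and 0 in all 3 labelled SE+IFNy. They were 37, 14 and 29 in LE+IFNy, 17, 22 and 43 in PE+IFNy, 0 in all 3 of PBS and 1, 0 and 0 in SE. The highest of these, 1.69 CPM, was below the lowest letter-labelled library with IFN-γ.

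**Figure D2:**
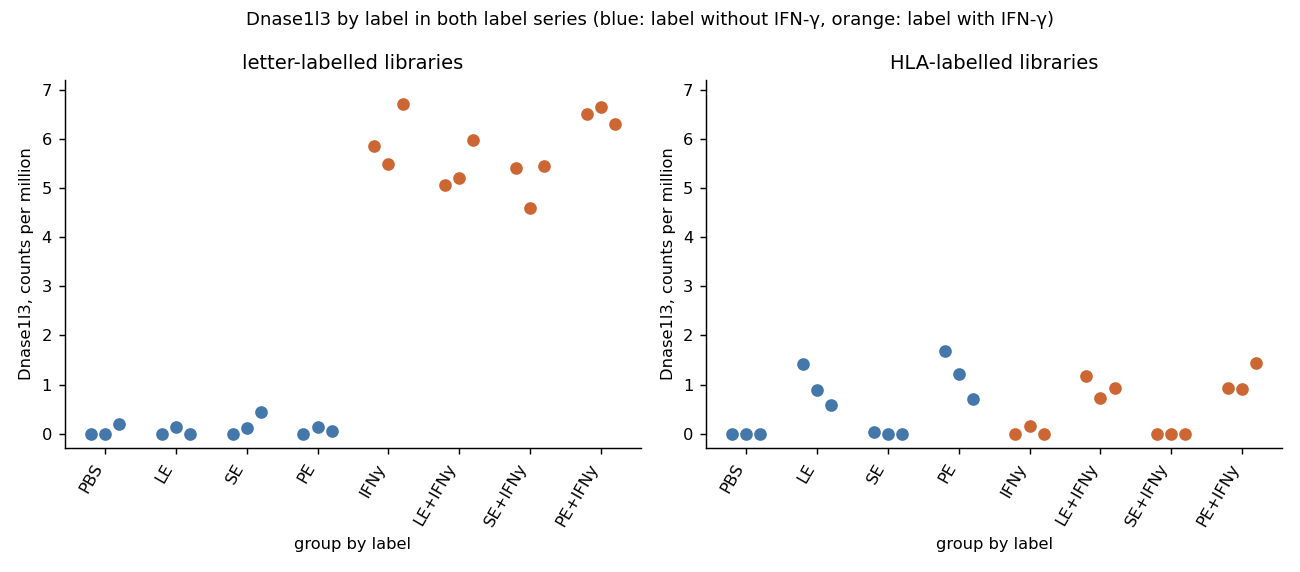
Dnase1l3 in CPM, 1 point per library, by the group named in the label, for the letter-labelled libraries on the left and the HLA-labelled libraries on the right, on the same axis. On the left the points divide at the IFN-γ label, and on the right the libraries labelled LE and PE lie above those labelled IFNy and SE+IFNy.

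Dnase2a (chr8:84908560-84922915, plus strand) encodes the acid DNase of lysosomes, which digests the DNA of engulfed cells. It was abundant, with 3002 to 7116 counts a library, and it was the one member for which an interaction of peptide and IFN-γ was called. In PBS replicates 1 to 3 stood at 256, 242 and 231 CPM and in IFNy at 190.2, 203 and 197 CPM. The 2 groups did not overlap, and the log2 fold change of -0.29 ± 0.07 (SE) passed the adjusted p (0.00588) but not 1.5-fold.

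With LE the level of Dnase2a was 267, 266 and 272 CPM, and with LE+IFNy 134, 140.3 and 131 CPM. With SE it was 290.3, 264 and 257 CPM, and with SE+IFNy 144, 154 and 139 CPM. With PE it was 291, 255 and 323 CPM, and with PE+IFNy 194, 188 and 204 CPM. In each of the 3 pairs every library with IFN-γ was below every library without it.

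The corresponding Model B changes of Dnase2a were all called. It fell by 1.02 ± 0.08 on the log2 scale with LE (adjusted p = 6.71e-10), by 0.93 ± 0.08 with SE (3.76e-09) and by 0.62 ± 0.08 with PE (1.49e-06). The fall with PE lay just past 1.5-fold, and without replicate 3 it was -0.56 and no longer called. In Model B 35.1% of 12947 genes were called with LE, 26.3% with SE and 21.0% with PE, and the members called were 3, 2 and 2 of the 7 tested.

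Whether these falls differed from the change without a peptide was tested as an interaction, over all 24 letter-labelled libraries in 1 fit. For Dnase2a the interaction was -0.73 ± 0.11 on the log2 scale for LE (adjusted p = 1.55e-05) and -0.64 ± 0.11 for SE (adjusted p = 0.000186), both called. For PE it was -0.34 ± 0.11 with an adjusted p of 0.54. Called genes were 18.9% of 13096 for LE and 7.96% for SE. For PE they were 0.00%, with 1073 genes under an unadjusted p of 0.05 and 0 called by DESeq2. Dnase2a was the only member called in these tests, and without replicate 3 the value for SE was -0.58 and no longer past 1.5-fold.

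The interaction had 2 sides for Dnase2a. Against PBS, the peptides alone gave log2 values of 0.19 (LE), 0.23 (SE) and 0.34 (PE), of which that of PE passed the adjusted p (0.0171) without reaching 1.5-fold. In Model A the values were -0.53 ± 0.06 for LE+IFNy (adjusted p = 4.67e-07) and -0.41 ± 0.06 for SE+IFNy (1.99e-05), neither past 1.5-fold, and 0.02 ± 0.06 for PE+IFNy (0.864). Directly compared, LE+IFNy was -0.55 ± 0.06 (2.31e-07) and SE+IFNy -0.43 ± 0.06 (1.35e-05) against PE+IFNy, again short of 1.5-fold, while LE+IFNy against SE+IFNy was -0.12 ± 0.06 (0.102). In order of level the 8 groups ran from PE at 289.8 ± 34.4 CPM (SD) over SE, LE, PBS, IFNy and PE+IFNy to SE+IFNy at 145.6 ± 8.0 and LE+IFNy at 135.0 ± 4.8. The breaks without overlap lay between LE and PBS, PBS and IFNy, and PE+IFNy and SE+IFNy. The genes most like it over the 24 libraries included Clstn1 (r = 0.985) and Aamp (0.982).

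**Figure D3:**
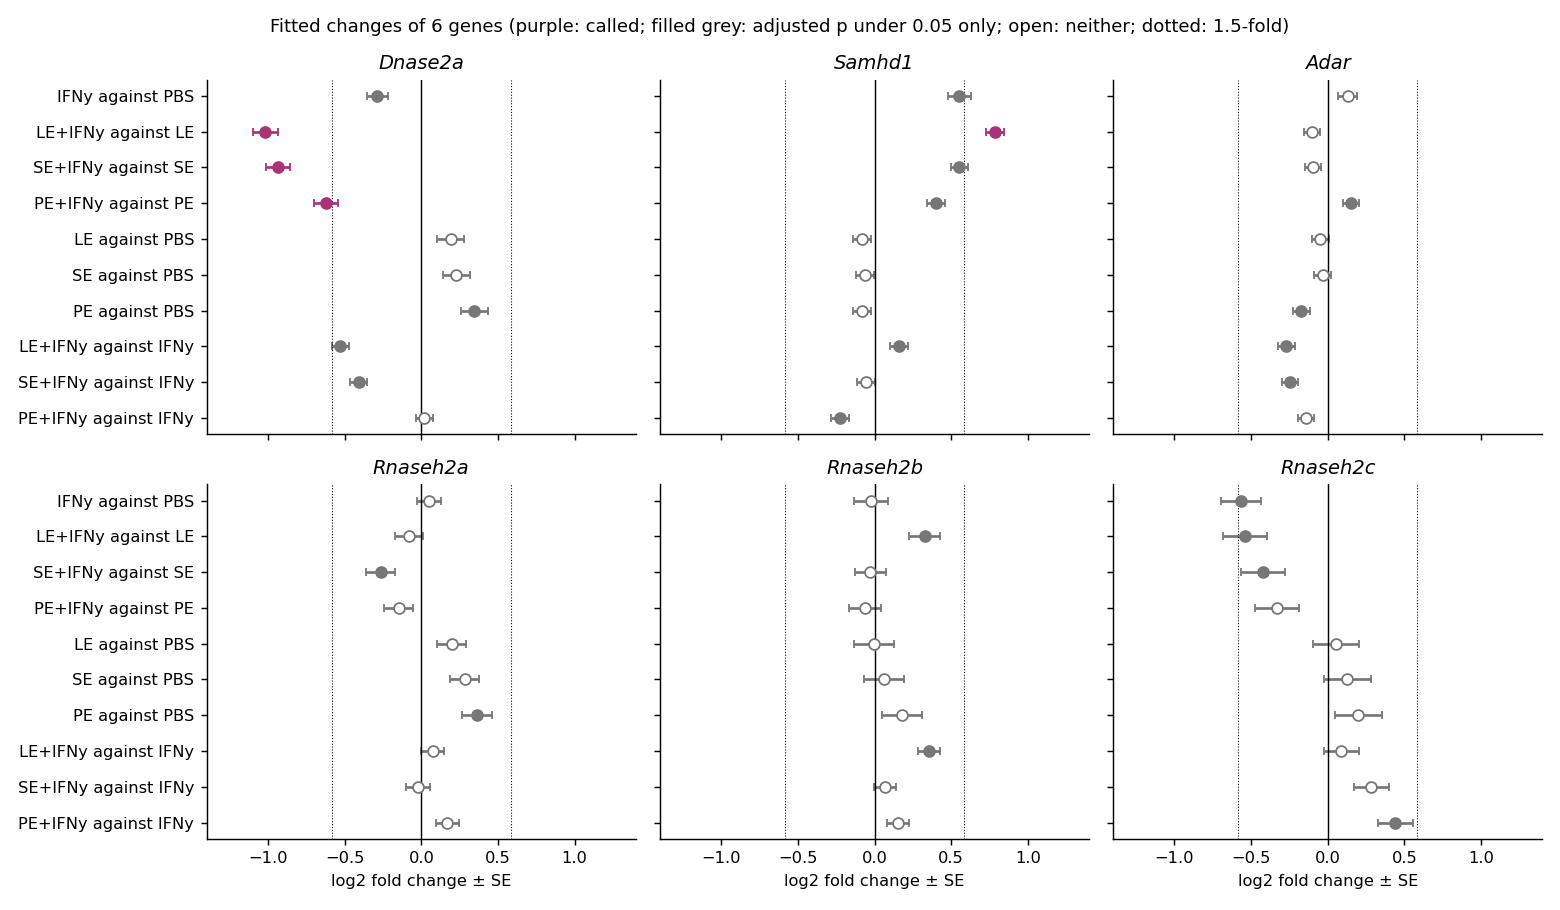
Fitted log2 fold change with its standard error for 6 genes in 10 comparisons of letter-labelled groups. Purple points were called, filled grey points passed the adjusted p alone, open points neither, and dotted lines mark 1.5-fold. Only Dnase2a, in 3 comparisons, and Samhd1, in LE+IFNy against LE, have purple points.

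Samhd1 (chr2:157097533-157135265, minus strand) encodes a dNTP hydrolase that starves reverse transcription and DNA synthesis of their building blocks. Its level was higher with IFN-γ in every pair of groups. PBS replicates 1 to 3 stood at 190.0, 194 and 202 CPM and IFNy at 292, 263 and 295 CPM, and the log2 fold change of 0.55 ± 0.07 (adjusted p = 0.000104) came just under 1.5-fold, which without replicate 2 it passed. With LE the 3 libraries stood at 179, 179 and 178 CPM and with LE+IFNy at 302, 305 and 333 CPM.

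Samhd1 rose by 0.79 ± 0.06 on the log2 scale from LE to LE+IFNy (adjusted p = 1.49e-10). From SE to SE+IFNy the value was 0.55 ± 0.06 (4.47e-08) and from PE to PE+IFNy 0.40 ± 0.06 (5.07e-06), both short of 1.5-fold. With IFN-γ present the order of the means was LE+IFNy at 313 ± 16.8 CPM (SD), IFNy at 284 ± 17.5, SE+IFNy at 268 ± 10.8 and PE+IFNy at 238 ± 7.8, and the ranges of IFNy and SE+IFNy overlapped. LE+IFNy and PE+IFNy differed by 0.38 ± 0.06 (2.43e-05), and the interaction for LE was 0.23 ± 0.08 (0.0319), neither past 1.5-fold. The peptides alone gave -0.08, -0.06 and -0.08, none past the adjusted p.

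The genes most like Samhd1 over the 24 libraries were Cybb (r = 0.984), the catalytic subunit of the phagocyte oxidase, Lyn (0.984), a Src-family kinase, and Ms4a6c (0.983). Of the 17 genes of dNTP synthesis and breakdown listed beside it, 2 fell with IFNy against PBS and 0 rose, where 18.1% of all genes were called. They were Rrm2, a ribonucleotide reductase subunit (-0.83, adjusted p = 0.0021), and Dtymk, thymidylate kinase (-0.63, 0.000454). In LE+IFNy against IFNy, where 15.5% of all genes were called, Rrm1 (1.07) and Rrm2 (0.90) rose and Nt5c (-0.83), Nme2 (-0.79) and Tk2 (-0.59) fell, and Samhd1 itself stood at 0.16 ± 0.06 (0.0311). With SE+IFNy and with PE+IFNy 0 of the 17 were called by edgeR or DESeq2, and 12 and 6 had an unadjusted p under 0.05.

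RNase H2 removes ribonucleotides built into DNA and RNA-DNA hybrids. It is a complex of a catalytic subunit, Rnaseh2a (chr8:84956610-84969767, minus strand), and 2 accessory subunits, Rnaseh2b (chr14:62292589-62372992, plus strand) and Rnaseh2c (chr19:5601873-5607019, plus strand), all needed for activity. No subunit was called in any of the 16 comparisons by edgeR or DESeq2. Rnaseh2a passed the adjusted p alone in 2 of them, Rnaseh2b in 4 and Rnaseh2c in 5. Over all genes the share called ran from 0.00% in the interaction of PE to 35.1% in LE+IFNy against LE. In the same 2 comparisons, 1073 of 13096 and 8883 of 12947 genes had an unadjusted p under 0.05 by edgeR. Per kilobase of exon the mean level in PBS was 11.1 CPM for Rnaseh2a, 9.38 CPM for Rnaseh2c and 4.20 CPM for Rnaseh2b.

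The subunits gave different values in IFNy against PBS, though a difference between them was not tested. Rnaseh2c stood at 14.5, 17.1 and 16.7 CPM in PBS and at 9.55, 11.5 and 11.2 CPM in IFNy, a log2 value of -0.57 ± 0.13 (adjusted p = 0.00442) just short of 1.5-fold. Rnaseh2a, at 39.0, 38.3 and 39.4 CPM in PBS and 41.9, 37.6 and 40.1 CPM in IFNy, gave 0.05 ± 0.08 (0.641). Rnaseh2b, at 30.4, 25.1 and 23.1 CPM and then 26.3, 23.7 and 26.6 CPM, gave -0.02 ± 0.11 (0.892). The per-kilobase level of Rnaseh2c relative to Rnaseh2a was 0.846 ± 0.079 (SD, n = 3) in PBS and 0.554 ± 0.080 in IFNy. For Rnaseh2b relative to Rnaseh2a the ratio was 0.379 ± 0.055 and 0.360 ± 0.011. Over the 24 libraries, which share the 8 conditions, Pearson's r of the log2 levels was 0.55 for Rnaseh2a with Rnaseh2c, 0.178 for Rnaseh2a with Rnaseh2b and -0.186 for Rnaseh2b with Rnaseh2c.

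Rnaseh2b had its highest mean in LE+IFNy, at 33.2, 32.6 and 31.1 CPM, above all 3 libraries of IFNy, SE+IFNy and PE+IFNy. The log2 difference was 0.36 ± 0.07 against IFNy (adjusted p = 0.000493) and 0.29 ± 0.07 against SE+IFNy (0.00533), with none past 1.5-fold. Over all genes with a known length, the LE+IFNy against IFNy change correlated with the length of the transcript (rho 0.217, Spearman) and with its GC content (rho -0.28). With an offset for both the value for Rnaseh2b was 0.21 (adjusted p = 0.0318). Against PE+IFNy it was 0.20 (0.0216) without the offset and -0.07 (0.471) with it. In PE+IFNy against IFNy, where the trend with length was -0.411, the value for Rnaseh2c was 0.44 ± 0.11 (0.0232) and with the offset 0.22 (0.204).

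**Figure D4:**
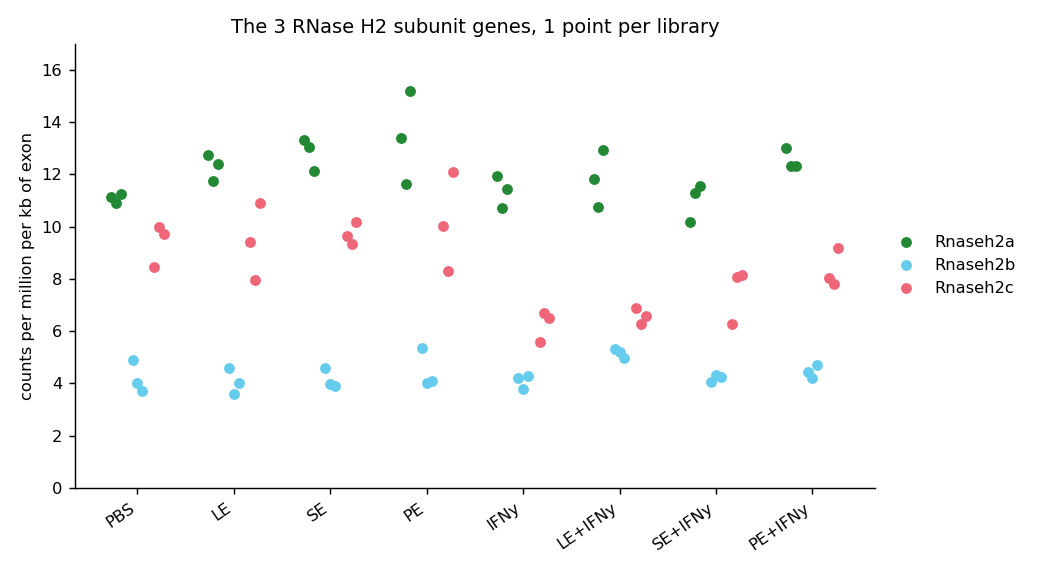
The 3 RNase H2 subunit genes in CPM per kilobase of exon, 1 point per letter-labelled library, in the 8 groups. Rnaseh2c is lower in IFNy and LE+IFNy than in the 4 groups without IFN-γ, Rnaseh2a and Rnaseh2b do not divide at IFN-γ, and PE replicate 3 holds the highest point of Rnaseh2a and of Rnaseh2c.

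The genes most like the subunits were Mtx1 (r = 0.766), Gins4 (0.758) and Eef1d (0.755) for Rnaseh2a, and Rad51ap1 (0.759), Nsmce4a (0.736) and Nasp (0.734) for Rnaseh2b. For Rnaseh2c they were Myl6 (0.900), Sh3bgrl3 (0.899) and Ndufa2 (0.896). Of 28 DNA replication genes listed, 20 were called higher in LE+IFNy against IFNy, beside 15.5% of all genes in either direction, among them Lig1 (1.47), Pola1 (1.30) and Mcm6 (1.25), and 7 in SE+IFNy. In PE+IFNy it was 0 by edgeR and by DESeq2, with 10 under an unadjusted p of 0.05. With IFNy against PBS 5 fell, among them Mcm6 (-1.46), Mcm7 (-0.99) and Gins3 (-0.75). The list's median log2 value in LE+IFNy against IFNy was 0.83, beside -0.01 over all genes tested.

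Adar (chr3:89715022-89753446, plus strand) encodes the adenosine deaminase that edits double-stranded RNA, and it is known as an interferon-induced gene through 1 of its promoters. Of the 7 genes with counts it varied least over the 24 libraries, from 162.0 to 229.8 CPM or by 1.42 times. It was not called in any comparison, where the share called over all genes ran from 0.00% to 35.1%. PBS stood at 204, 206 and 201 CPM and IFNy at 229.8, 221 and 211 CPM, with no overlap, and the log2 value was 0.13 ± 0.06 (adjusted p = 0.125).

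With IFN-γ, Adar was lower beside each peptide. LE+IFNy stood at 185, 176 and 182 CPM and SE+IFNy at 189, 186 and 172 CPM. PE+IFNy stood at 208, 196 and 185 CPM, and all 9 of these libraries were below the lowest IFNy library, at 211 CPM. The Model A values of -0.27 ± 0.05 (adjusted p = 0.00039) and -0.25 ± 0.05 (0.00147) passed the adjusted p but not 1.5-fold, and PE+IFNy gave -0.14 ± 0.05 (0.0895). The interaction with IFN-γ was -0.23 ± 0.07 for LE (adjusted p = 0.013) and -0.22 ± 0.07 for SE (0.0317), neither past 1.5-fold, and 0.01 ± 0.07 for PE (0.97). With the length and GC offset the Model A value of LE+IFNy was -0.32 (9.86e-06). For PE against PBS, where libraries of PE stood at 172, 177 and 162.0 CPM, the value of -0.17 (0.0374) became -0.03 (0.777) with the offset, in a comparison whose trend with length was -0.49. The genes most like Adar were Myo7a (r = 0.924), Pi4kb (0.906) and Ppip5k1 (0.895).

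The peptides without IFN-γ called no member. Of 6 members tested, Dnase1l3 and Trex1 being under the filter on low counts, 0 were called with LE, SE or PE, by edgeR or DESeq2. Under an unadjusted p of 0.05 there were 1, 2 and 3 of them. Among all 12420 genes the share called was 0.0242% with LE, 1.92% with SE and 3.13% with PE. These shares turned on single libraries, since the 239 genes called with SE became 3, 419 and 17 without replicates 1, 2 and 3, and the 389 with PE became 0, 1021 and 60. Rnaseh2a gave log2 values of 0.20, 0.28 and 0.36 in that order, the last with an adjusted p of 0.0199, and with the offset the PE value was 0.27 (0.0583). PE replicate 3 held the highest Dnase2a, Rnaseh2a and Rnaseh2c and the lowest Samhd1 and Adar of the 12 libraries without IFN-γ.

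In Model A 0 of 7 members tested were called for LE, SE or PE, by either tool, while 4, 3 and 5 had an unadjusted p under 0.05. The share of all 12720 genes called was 15.5% with LE, 7.39% with SE and 0.629% with PE, and the 80 genes behind the last became 4, 250 and 9 without replicates 1, 2 and 3 and 31 by DESeq2. Between peptides with IFN-γ 0 of 7 were called as well, with 3, 6 and 4 under an unadjusted p of 0.05 for LE against SE, LE against PE and SE against PE. There the share called was 4.93%, 21.6% and 7.59%. Comparisons that share a control group are not independent of each other.

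The neighbouring genes of the same pathways give the setting in IFNy against PBS, where the share called over all genes was 18.1%. Of 18 other DNA nucleases tested 0 were called by edgeR or DESeq2, with 8 under an unadjusted p of 0.05, and of 18 RNA nucleases 2 rose, Rnase6 (3.34, adjusted p = 3.35e-05) and Rnaset2a (0.92, 0.000651). Of 6 editing genes Apobec1, a cytidine deaminase, rose (0.90) and Adarb1 fell (-0.77). Of 24 nucleic acid sensors 7 rose, led by Zbp1 (4.90), Oasl2 (2.71) and Tlr9 (2.12), the receptor for DNA in endosomes, and 3 fell, Oas2 (-1.34), Ddx58 (-0.79) and Dhx9 (-0.72). All 20 IFN-γ targets rose, and of 20 type I interferon targets 11 rose, led by Mx1 (4.33), Ifit3 (2.77) and Rsad2 (2.69), and Ifi27 fell (-1.13).

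In LE+IFNy against IFNy, against 15.5% over all genes, 3 of the 18 DNA nucleases were called, with 1 rise, Gen1 (1.36), a resolvase of DNA junctions, and 2 falls, Dffb (-0.75) and Endog (-0.62), nucleases of apoptotic DNA breakdown. The RNA nucleases gave a rise of Zc3h12a (1.18), which degrades cytokine mRNA, and falls that included Rnase4 (-0.66) and Rnaset2a (-0.64). Among the sensors Ifi204 (0.89) and Zbp1 (0.63) rose. Of the type I interferon targets 5 rose, led by Rsad2 (1.77), Ifit1 (1.10) and Irf7 (1.02). In PE+IFNy against IFNy 0 genes of the DNA nuclease, RNA nuclease and sensor lists were called by edgeR or DESeq2, with 4, 9 and 9 under an unadjusted p of 0.05.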

How the data were processed

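The deposited table held read counts per gene, which the authors made with featureCounts from uniquely aligned reads on GRCm38.p5 with GENCODE M12 and did not normalize. The authors' own test, DESeq2 1.16.1 in R 3.4.1, was not used, and the aligner and the strand setting of the counting are not given in the sources used here. All 48 columns matched a sample by name. The counts were tested in R 4.3.3 with edgeR 4.0.16 (TMM scaling, filterByExpr, quasi-likelihood F test), each comparison in a fit of the letter-labelled groups it concerns, and DESeq2 1.42.0 was run as an alternative. Adjusted p-values run over all genes tested. The steps were tested on simulated data. CPM is the count scaled to the library total, per mega. Exon lengths, positions and overlaps came from GENCODE M21, and promoters from RefSeq. Correlations used log2 (CPM + 0.5).

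The 8 genes and the lists beside them were chosen with earlier results of these data known. Named beside the members were up to 3 called genes per direction of each list with the largest fold change in IFNy against PBS and in LE+IFNy against IFNy, and the 3 genes most correlated with each member. Some genes that this rule names are not reported here. Alternatives were RLE scaling, DESeq2, no filter, a replicate block, a length and GC offset, both together, 1 fit of all groups, each replicate number left out, and the HLA-labelled libraries added or alone. The intervals and floors of the pooled Dnase1l3 ratios cover counting error only. The intervals of the log2 differences come from the edgeR fit and include the spread between libraries. Reads carried no molecular identifiers.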

Additional observations from a re-analysis of the deposited data

Results flagged for a closer look

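The response of Dnase2a to IFN-γ differed between cells with LE or SE and cells without a peptide by the test of the interaction itself. The log2 value was -0.73 for LE, from a change of -0.29 without a peptide to -1.02 with it, and -0.64 for SE, whose own change was -0.93. Without replicate 3 the SE value was -0.58 and no longer called. For PE the value was -0.34, not past the threshold (adjusted p = 0.54 in edgeR's test). Every library with IFN-γ lay below every library without it in all 4 pairs of groups. The difference between the values for LE and SE was not tested. Over all 13096 genes 18.9% were called in the interaction for LE and 7.96% in that for SE, beside 1 of the 7 members tested in each.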

How the results depend on the processing

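The 10 called values of the members (4 of Dnase1l3, 5 of Dnase2a and 1 of Samhd1) kept direction and call under DESeq2, RLE scaling, no filter, the length and GC offset, and, where it gives another fit (8 values), 1 fit of all groups. Leaving out a replicate number gave 1 to 2 members called in IFNy against PBS (2 without replicate 2, Samhd1 being added), 6 to 8 in Model B, 1 to 2 interactions (1 without replicate 3, where Dnase2a with SE stood at -0.58), 0 to 1 between peptides with IFN-γ (1 without replicate 2, Dnase2a in LE+IFNy against PE+IFNy), and 0 in the others. The 8 in Model B came without replicate 2, Rnaseh2c being added in LE+IFNy against LE. The fitted value of Dnase1l3 ran from 5.98 to 10.07 for IFNy against PBS, the highest where PBS was left with no count.

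The replicate numbers were not taken as pairs in the main fits. The correlation of same-numbered libraries' deviations from the group means was over 0.1 in 25 of 84 pairs of the 8-group fit and in 0 of 3 for PBS and IFNy. For PBS and the peptides alone it was over 0.1 in 12 of 18, with a median of 0.132 beside -0.074 for other pairs, so those libraries did tend to deviate together. In that fit the replicate block raised the genes called from 239 to 344 for SE and from 389 to 514 for PE, with 0 members called. With the replicate block, and with the block and the offset, all 10 values stayed called, and the members called numbered 1 in IFNy against PBS, 7 in Model B, 2 interactions and 0 in the other comparisons, as without it.

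The settings that use the HLA-labelled libraries, of which 12 go against their labels, changed most. Both series together gave 0 members called in IFNy against PBS, in Model B (7 in the letter-labelled libraries) and in the interactions, also with the series as a block, which gave 3 for the peptides alone. Over all genes IFNy against PBS called 1 of 12917 without the block and 40 with it. With the block LE and PE against PBS called 1123 and 932 of 13794. The HLA-labelled libraries alone gave 0 for IFNy against PBS, 4 for the peptides alone, 4 for Model A, 4 between peptides, 1 for Model B and 1 interaction. In the comparisons with a member called, the genes called over all were many. They were 4065 (LE) and 3627 (PE) of 14230 against PBS and 1929 (LE) and 1890 (PE) of 14110 in Model A. Between peptides they were 2236 (LE against SE) and 2051 (SE against PE) of 14110. For LE they were 2593 of 14527 in Model B and 2495 of 14748 in the interaction. There Dnase1l3 was -0.14, -1.79 and -0.16 in Model B for LE, SE and PE, Samhd1 -0.69 for LE, Dnase2a 0.33, 0.16 and 0.19, and the interaction of LE for Dnase2a 0.16, all reversed. The SE value of Dnase1l3 rested on 1 count over the libraries labelled SE and 0 over those labelled SE+IFNy. With the length and GC offset the genes called over all fell from 239 to 83 for SE against PBS, from 389 to 102 for PE against PBS and from 80 to 40 for PE+IFNy against IFNy. Depth limited Dnase1l3 without IFN-γ, at 0 to 9 counts a library, where a difference between peptides was not detectable.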
